A study of Mus musculus with 6 samples.

Results

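The genes examined here encode the coats and receptors that move proteins between the endoplasmic reticulum (ER) and the Golgi apparatus. They are a list of 45 gene symbols chosen by function, and a probe belonged to the list when the array annotation gave it one of these symbols. Of the listed genes, 42 had a probe, 84 probes in all, among the 19057 genes and 45281 probes of the array. Sec23b, Arf1 and Tmed7 were not analysed here. Their expression was compared between mouse ES (embryonic stem) cells of the D3 line, grown on gelatin with leukemia inhibitory factor and labelled passage 21, and the insulin-secreting mouse insulinoma line MIN6, labelled passage 23. There were 3 samples of each line, with 1 array (Illumina Mouse WG-6 v2.0 BeadChip) per sample, and the labels give no treatment. Each line is a single established line grown in its own medium, so lineage, tumour origin and medium cannot be told apart as sources of a difference. Signals average over a whole culture, so fewer expressing cells and less RNA per cell cannot be told apart either.

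Newly made secretory proteins, proinsulin among them, leave the ER in vesicles coated with COPII. The GTPase Sar1 is activated at the ER by its exchange factor Sec12 (the Preb gene), and recruits the inner coat of Sec23 and Sec24, of which Sec24 binds cargo, and then the outer cage of Sec13 and Sec31. COPI-coated vesicles carry proteins back from the Golgi and between its cisternae. Their coat, coatomer, is recruited by Arf GTPases, which the exchange factor Gbf1 switches on and the ArfGAP proteins switch off. Cargo receptors such as the p24 (Tmed) proteins, Lman1 and Lman2 cycle between both compartments, and the KDEL receptors return ER chaperones that have escaped.

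On each array between 15563 and 16259 probes were above background, defined as a detection p under 0.01, and the median raw signal was 134 to 188. Signals were quantile-normalized between the 6 arrays and are given as log2 values. The 5 listed ES cell markers (Nanog, Pou5f1, Zfp42, Sox2 and Esrrb) were above background on every D3 array and on no MIN6 array, and the 5 β-cell markers (Ins2, Iapp, Pdx1, Nkx6-1 and Slc30a8) the reverse. Thy1 was the only one of 6 fibroblast markers detected, on the D3 arrays alone. The log2 of their summed signal was 10.2 on each D3 array and 9.50 to 9.63 on the MIN6 arrays, and their part in the results was not tested. Of 4 acinar and ductal markers measured, Cpa1 and Cel were not detected, Cela1 was detected on the D3 arrays alone, and Krt19 on 2 D3 and 3 MIN6 arrays. The log2 of their summed signal was 9.46 to 9.63 on the D3 and 9.39 to 9.55 on the MIN6 arrays.

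Most of these transport genes were expressed at a higher level in MIN6 than in D3 cells. A gene was called higher or lower at an adjusted p under 0.05 (limma, Benjamini-Hochberg over all probes) together with a change of at least 1.5-fold, each gene being represented by its brightest probe. On this basis 29 of the 42 genes (69.0%) were higher in MIN6 cells, against 17.1% of all genes, and 3 (7.14%) were lower, against 17.5%. The genes called lower were Sec23a, Kdelr3 and Copg2, and only Sec23a kept that call with median scaling and with cyclic loess in place of quantile normalization. The median log2 change was 1.07, a 2.10-fold difference, while the median over all genes was -0.01. The same calls fell on 39 transport genes above background on at least 1 array, against 29.8% higher and 30.4% lower among 10853 genes detected to that extent. Of the 37 transport genes above background on all 6 arrays, 27 were higher (73.0%) and 3 lower (8.11%), against 27.3% and 28.9% of 7223 genes. Their changes were above 0 for 34 of 37 genes, compared with 3455 of 7223.

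**Figure D1:**
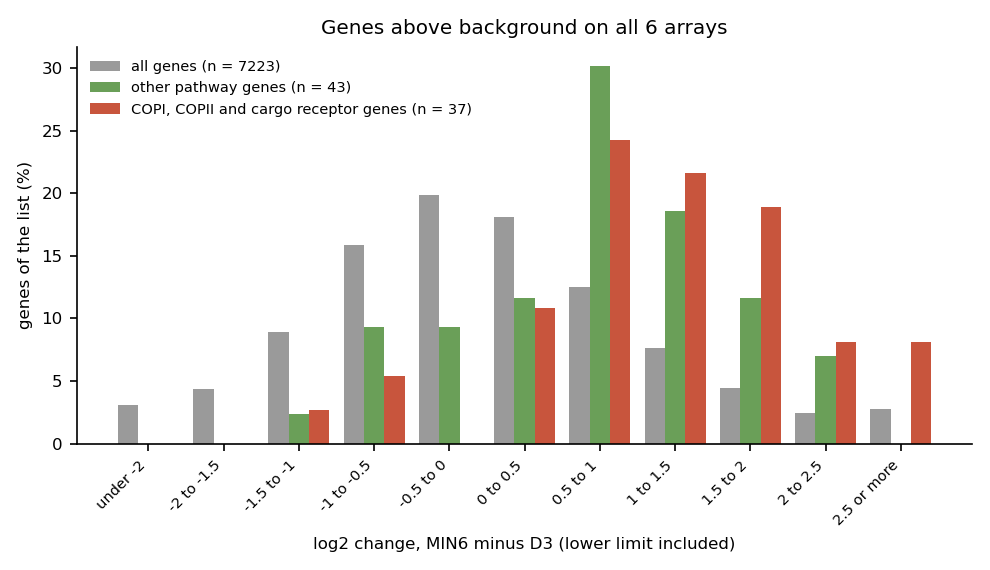
Share of genes (vertical axis, percent of each list) in bins of log2 change from D3 to MIN6 cells (horizontal axis), for genes above background on all 6 arrays. Of the 37 COPI, COPII and cargo receptor genes (red), 24.3% lie between 0.5 and 1 and none lies between -0.5 and 0, the fullest bin for the 7223 genes (grey, 19.9%). The 43 genes of a wider list, labelled other pathway genes (green), are shown beside them.

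The 10 genes that were not called were of several kinds. In 7 of them (Sec13, Sec24b, Sec24c, Copb1, Arf3, Tmed9 and Kdelr1) the adjusted p was under 0.05 but the change was under 1.5-fold, and in each of these the fitted change was above 0. In Sec24a, Tmed5 and Copz1 the adjusted p was above 0.05. Sec24a, Tmed5 and Kdelr1 were above background on no array, so no fold is given for them. The arrays of one line were all above or all below those of the other for 40 of the 42 genes, the exceptions being Sec24a and Copz1, and for 54.4% of all genes. Among genes above background on all 6 arrays this held for 36 of 37 and for 81.7%.

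**Figure D2:**
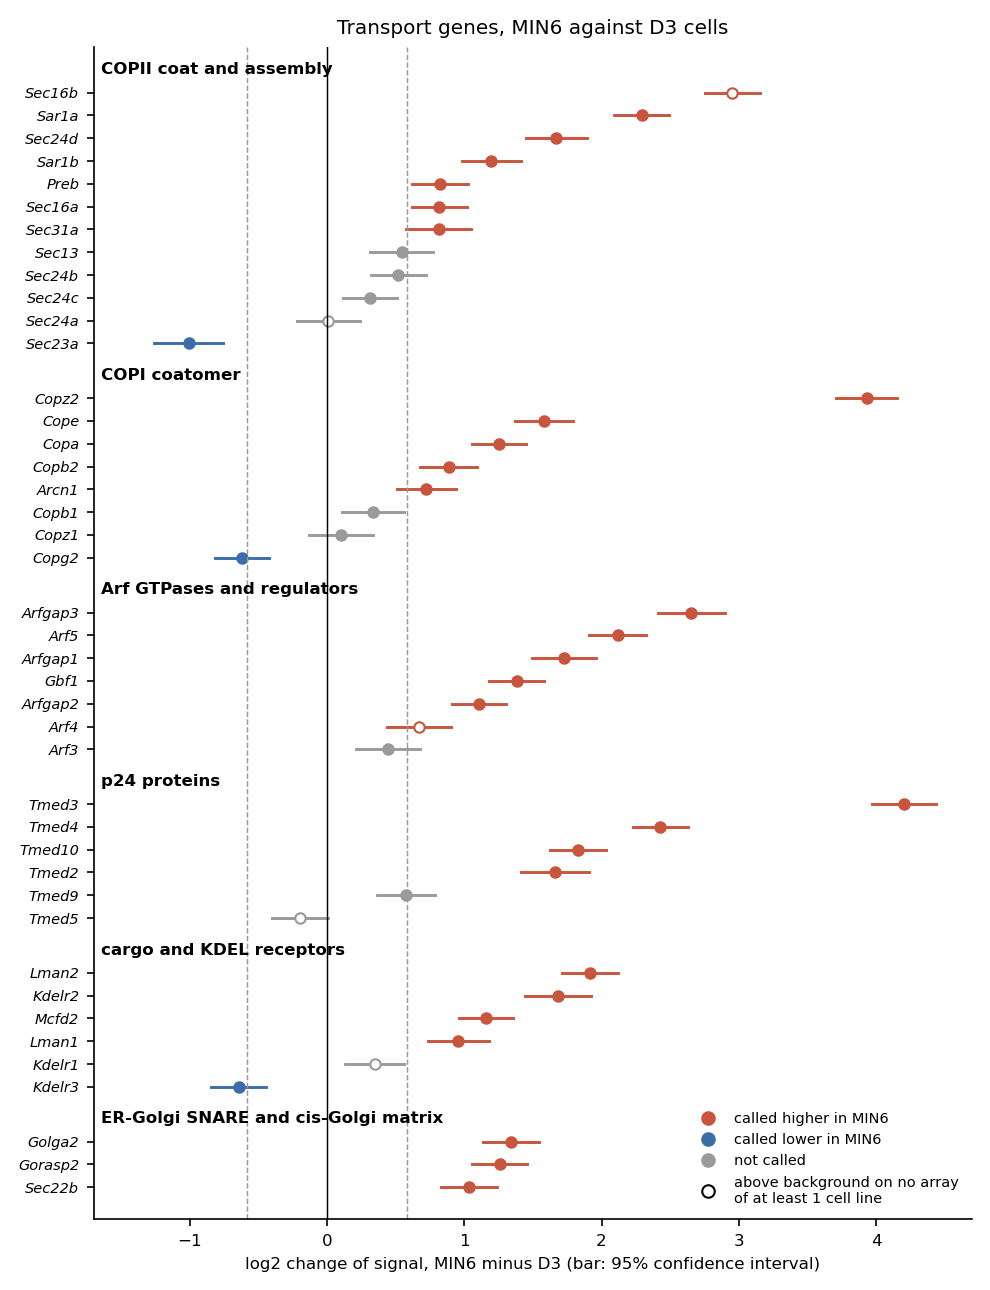
Log2 change from D3 to MIN6 cells (horizontal axis) for each of the 42 genes, grouped by role, with bars for the 95% confidence interval and n = 3 arrays per line. Dashed lines mark a 1.5-fold change. Red points were called higher, blue points lower and grey points neither. Open points mark genes above background on no array of at least 1 line. Every role group leans to the right, and Sec23a, Copg2 and Kdelr3 stand to the left of 0.

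Among the COPII genes, 7 of 12 were higher in MIN6 cells, 1 was lower and 4 were not called, with a median log2 change of 0.82. Sec16b encodes the shorter of the Sec16 scaffold proteins of ER exit sites. Its log2 signal was 7.12, 7.01 and 7.03 in D3 cells, never above background, and 9.95, 10.03 and 10.03 in MIN6 cells. The gene was therefore detected in MIN6 cells alone and was at least 4.68-fold higher there (adjusted p = 2.09e-16, limma), a bound set by the lowest D3 signals that still passed the detection test. The long form, Sec16a, was above background in both lines and was 1.76-fold higher. Sar1a, a form of the GTPase that starts coat assembly, had log2 signals of 10.00, 10.19 and 10.10 in D3 and 12.38, 12.37 and 12.41 in MIN6 cells. Its change of 2.29 (SE 0.10), or 4.90-fold, was many times the spread within either line (adjusted p = 1.77e-14, limma). The other Sar1 gene, Sar1b, was 2.29-fold higher, and its second probe gave a similar change (1.13 against 1.20 on the log2 scale). Preb, the exchange factor of Sar1, was 1.77-fold higher by its brightest probe, while a dimmer probe, detected in MIN6 cells alone, was at least 4.45-fold higher.

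The coat subunits themselves did not move alike. Sec24d, one of the cargo-binding Sec24 proteins, had log2 signals of 9.10, 9.22 and 8.89 in D3 and 10.66, 10.71 and 10.85 in MIN6 cells. All the MIN6 values lay above the D3 values, a 3.18-fold difference (log2 change of 1.67, SE 0.11, adjusted p = 1.71e-11, limma). Sec24b and Sec24c were above background on every array in both lines and neither was called, with log2 changes of 0.52 (95% confidence interval 0.32 to 0.72) and 0.31 (0.11 to 0.51), although Sec24b passed with median scaling (0.65) and cyclic loess (0.67). Sec24a was at background throughout. Of the outer cage, Sec31a was 1.76-fold higher by its brighter probe, while a dimmer probe that was detected on all arrays as well gave -0.07 on the log2 scale and no call. Sec13, which also serves in the nuclear pore, had a log2 change of 0.54 (0.31 to 0.77), under the fold threshold, but passed it with cyclic loess (0.70) and without D3 replicate 2 or MIN6 replicate 3 (0.62 each). Sec23a, the inner coat subunit that stimulates GTP hydrolysis by Sar1, went the other way. Its log2 signal was 9.82, 9.59 and 10.02 in D3 and 8.63, 8.74 and 9.03 in MIN6 cells. The highest MIN6 array thus stayed below the lowest D3 array, and the signal fell by 1.01 on the log2 scale (SE 0.12, a 2.01-fold difference, adjusted p = 3.89e-07, limma).

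Coatomer was likewise higher for 5 of 8 genes, lower for 1 and not called for 2, with a median log2 change of 0.81. The α, β′, δ and ε subunits, each encoded by a single gene, all rose. Cope, the ε subunit, had log2 signals of 12.18, 12.15 and 12.39 in D3 and 13.92, 13.75 and 13.79 in MIN6 cells, a 2.99-fold difference (log2 change of 1.58, SE 0.10, adjusted p = 2.12e-11, limma). All 4 Cope probes were called, with log2 changes of 1.57 to 1.85. Copa, the α subunit, had 11.89, 12.00 and 11.87 in D3 and 13.19, 13.20 and 13.14 in MIN6 cells, a 2.39-fold difference (adjusted p = 3.09e-10, limma). The arrays of each line lay within a narrow band for both subunits and the bands were far apart. Copb2, the β′ subunit, was 1.85-fold and Arcn1, the δ subunit, 1.65-fold higher. Copb1, the β subunit, was dim, at 7.81 to 7.93 in D3 and 7.98 to 8.40 in MIN6 cells, and its log2 change of 0.33 (0.11 to 0.56) was not called, although it passed with normexp background correction (0.61).

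The subunits that exist in alternative forms showed the widest divergence in the coat. Copz2, an alternative ζ subunit, had log2 signals of 7.89, 8.27 and 8.11 in D3 cells, close to background, and 12.02, 12.08 and 11.97 in MIN6 cells. It was 15.3-fold higher (log2 change of 3.93, SE 0.11, adjusted p = 1.28e-17, limma) and stood at rank 169 of the 19057 genes by fitted change. All 4 of its probes were called. The log2 changes were 3.93, 3.87 and 2.49 for those detected in D3 cells, the last from a dimmer probe above background on 1 D3 array. The dimmest probe was above background on no D3 array and was at least 3.8-fold higher. The other ζ gene, Copz1, gave 12.35, 12.38 and 12.63 in D3 and 12.66, 12.66 and 12.35 in MIN6 cells. These values overlap, and the log2 change of 0.10 had an interval of -0.13 to 0.33. A dimmer Copz1 probe, also detected on all arrays, gave a log2 change of -0.32 (-0.59 to -0.06). It was not called, and its values overlapped between the lines. Copg2, one of the γ subunits, had 9.53, 9.48 and 9.50 in D3 and 8.82, 8.88 and 8.95 in MIN6 cells, with no overlap. It was 1.54-fold lower (adjusted p = 1.02e-05, limma), a call close to the fold threshold that was lost with median scaling (-0.41 on the log2 scale), cyclic loess (-0.50), the authors' processed values (-0.52) and the mean of its probes (-0.27).

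Of the Arf GTPases and their regulators, 6 of 7 were higher, none was lower and Arf3 was not called, with a median log2 change of 1.38. Arfgap3, a GTPase-activating protein that acts on Arf at the Golgi, had the largest change of this group. Its log2 signal was 8.55, 8.12 and 8.08 in D3 and 10.93, 10.97 and 10.81 in MIN6 cells, a 6.30-fold difference (log2 change of 2.66, SE 0.12, adjusted p = 4.59e-14, limma). Arfgap1, which senses the curvature of the vesicle membrane, had 9.29, 9.33 and 9.71 in D3 and 11.22, 11.10 and 11.19 in MIN6 cells. Its brightest probe was 3.31-fold higher (adjusted p = 2.64e-11, limma), a second probe was called with a log2 change of 1.13, and the third, with 0.57, was not called. Arfgap2 was 2.16-fold higher, with 2 of its 4 probes called and log2 changes of 0.50 to 1.11. Arf5 rose from 9.97, 10.08 and 10.02 in D3 to 12.19, 12.00 and 12.22 in MIN6 cells, a 4.34-fold difference (adjusted p = 1.07e-13, limma). Gbf1, the exchange factor of these GTPases at the cis-Golgi, was 2.61-fold higher. Arf4 was above background on no D3 array and on 2 of the 3 MIN6 arrays, so that only a bound of at least 1.15-fold can be given, and its call was lost without MIN6 replicate 3 and with the authors' processed values. Arf3 had a log2 change of 0.45 (0.21 to 0.68) and passed with cyclic loess (0.59).

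The p24 proteins, which bind both coats and carry cargo such as GPI-anchored proteins, held the largest change of all 42 genes. Tmed3 had log2 signals of 8.49, 8.37 and 8.44 in D3 and 12.86, 12.68 and 12.40 in MIN6 cells. The lines were thus separated by many times the spread of either, an 18.5-fold difference (log2 change of 4.21, SE 0.11, adjusted p = 1.03e-17, limma), and Tmed3 stood at rank 143 of all genes by fitted change. Its second probe gave 3.95. Tmed4 had 10.49, 10.45 and 10.54 in D3 and 12.91, 13.01 and 12.84 in MIN6 cells, a 5.38-fold difference (adjusted p = 6.97e-15, limma), and each of its 4 probes was called, with log2 changes of 1.77 to 2.44. Tmed10 had 11.51, 11.40 and 11.36 in D3 and 13.16, 13.34 and 13.25 in MIN6 cells, a 3.55-fold difference (adjusted p = 1.08e-12, limma). Tmed2, which forms complexes with Tmed10, was 3.17-fold higher. In contrast, Tmed9, at 12.92 to 13.13 in D3 and 13.51 to 13.74 in MIN6 cells, had a log2 change of 0.57 (0.36 to 0.79), just under the fold threshold, and a dimmer probe gave -0.27. Its brighter probe passed with cyclic loess (0.73), with the authors' processed values (0.60) and without D3 replicate 1 (0.63), MIN6 replicate 1 (0.61) or MIN6 replicate 2 (0.61). Tmed5 was at background.

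**Figure D3:**
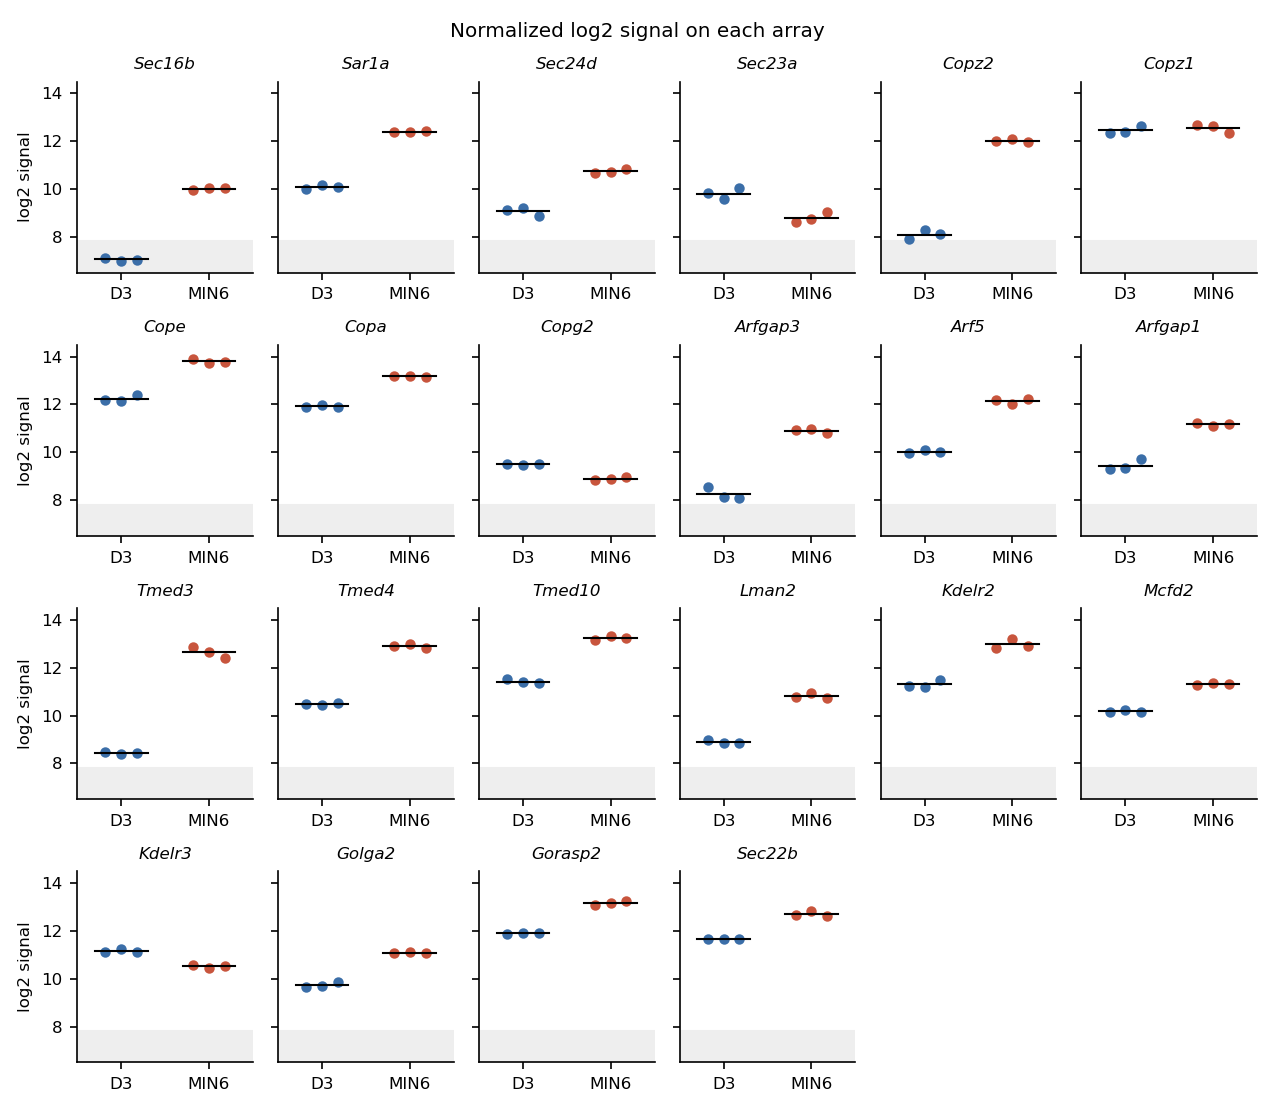
Normalized log2 signal (vertical axis) on each of the 3 D3 (blue) and 3 MIN6 (red) arrays for 22 of the genes, with the mean as a black line. Grey shading reaches up to 7.81, the highest of the lowest signals above background on the arrays. Sec16b lies in the shading in D3 cells, Copz1 overlaps between the lines, and Sec23a, Copg2 and Kdelr3 fall from left to right.

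Among the cargo and KDEL receptors, 4 of 6 genes were higher, 1 was lower and 1 was at background. Lman2 (VIP36), a lectin that binds high-mannose glycans, had log2 signals of 8.96, 8.85 and 8.85 in D3 and 10.77, 10.93 and 10.72 in MIN6 cells, a 3.77-fold difference (log2 change of 1.91, SE 0.10, adjusted p = 5.5e-13, limma). A second probe, above background on 1 D3 array and no MIN6 array, was not called. Lman1 (ERGIC-53) is the related lectin that, with its partner Mcfd2, exports coagulation factors from the ER. Mcfd2 had 10.14, 10.22 and 10.15 in D3 and 11.29, 11.37 and 11.32 in MIN6 cells, a 2.23-fold difference (adjusted p = 9.97e-10, limma), and Lman1 was 1.94-fold higher. For these 3 genes every MIN6 value lay above every D3 value.

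The KDEL receptors moved in opposite directions. Kdelr2 had log2 signals of 11.24, 11.20 and 11.50 in D3 and 12.84, 13.22 and 12.92 in MIN6 cells, a 3.21-fold increase (log2 change of 1.68, SE 0.11, adjusted p = 5.85e-11, limma). Kdelr3 had 11.12, 11.25 and 11.12 in D3 and 10.56, 10.47 and 10.53 in MIN6 cells, where it was 1.56-fold lower (adjusted p = 7.25e-06, limma). The arrays of the lines did not overlap for either gene. The Kdelr3 call lies near the fold threshold, and its change was -0.53 with median scaling and -0.50 with cyclic loess, neither of which passed. The probe for Kdelr1 was above background on no array, although its fitted change passed with normexp background correction.

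The SNARE Sec22b, which acts in fusion between the ER and the Golgi, and both cis-Golgi matrix genes were higher in MIN6 cells. Golga2 (GM130), a tether of the cis-Golgi, had log2 signals of 9.66, 9.71 and 9.89 in D3 and 11.08, 11.10 and 11.09 in MIN6 cells, a 2.53-fold difference (adjusted p = 1.8e-10, limma). Gorasp2 (GRASP55), a stacking protein of the cisternae, had 11.89, 11.90 and 11.91 in D3 and 13.07, 13.15 and 13.24 in MIN6 cells, a 2.39-fold difference (adjusted p = 3.38e-10, limma) with all 4 probes called. Sec22b had 11.66, 11.68 and 11.67 in D3 and 12.67, 12.82 and 12.62 in MIN6 cells, a 2.05-fold difference (adjusted p = 9.6e-09, limma), and its second probe gave a larger log2 change, 1.69 against 1.03.

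Related genes can be set against each other within an array, where the ratio of their signals shows unequal change but not which gene has more mRNA. Of 16 such pairs listed, 9 had both probes above background on all arrays, and Copg1 over Copg2 was added after its values had been seen. The log2 ratio of Copz1 to Copz2 was 4.46, 4.11 and 4.51 in D3 cells and 0.64, 0.57 and 0.38 in MIN6 cells. That ratio fell by 3.83 on the log2 scale, with a range of -4.13 to -3.48 over the pairings of a MIN6 with a D3 array. The ratio of Kdelr2 to Kdelr3 was 0.12, -0.06 and 0.38 in D3 and 2.28, 2.75 and 2.39 in MIN6 cells, a difference of 2.33 (1.90 to 2.81 over the pairings). Copg1, the other γ subunit gene, was 3.03-fold higher while Copg2 fell, and their ratio differed by 2.22 (1.99 to 2.43). For Tmed4 over Tmed9 the difference was 1.85, for Sar1a over Sar1b 1.09, for Arfgap2 over Arfgap3 -1.55, for Sec24c over Sec24d -1.36, for Lman1 over Lman2 -0.96 and for Copb1 over Copb2 -0.55. The values of the lines did not overlap for any of these. Copb1 was close to background, however. With normexp background correction the fitted changes of Copb1 and Copb2 were closer together, at 0.61 and 0.9 on the log2 scale. Tmed2 over Tmed10 overlapped, with a difference of -0.17 (-0.53 to 0.35 over the pairings). The exact two-sided permutation test gave p = 0.1 for each pair without overlap, the smallest that 3 against 3 arrays allow, and p = 0.4 for Tmed2 over Tmed10 (0.111 and 0.4 after adjustment over the 10 pairs), so no pair could pass 0.05.

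**Figure D4:**
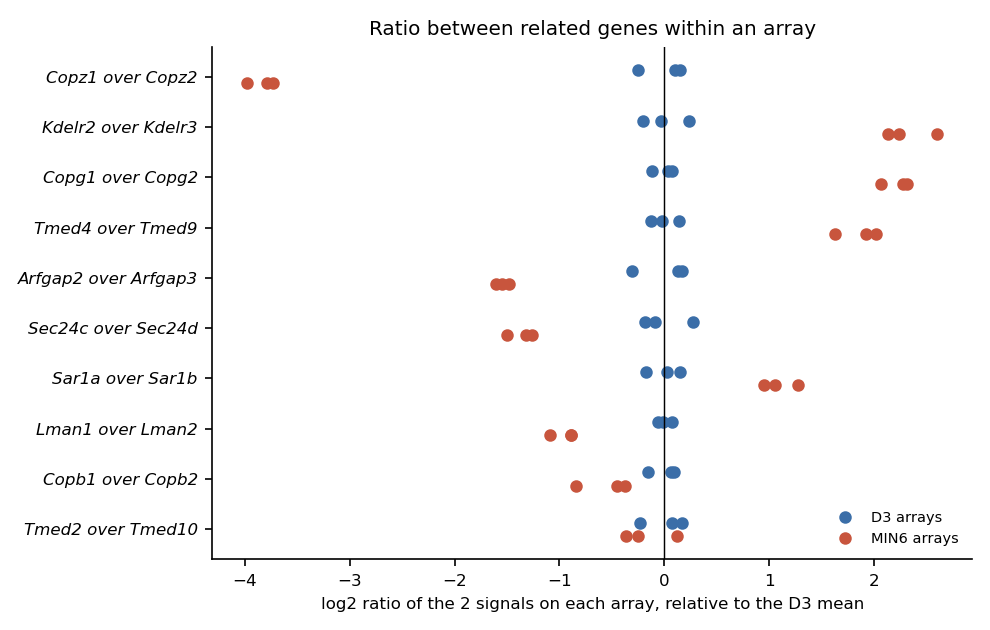
Log2 ratio of the signals of related genes on each array (horizontal axis, relative to the mean of the D3 arrays), for D3 (blue) and MIN6 (red) arrays and 10 pairs of genes (vertical axis). Copz1 over Copz2 is displaced to the left by 3.83 and Kdelr2 over Kdelr3 to the right by 2.33, while Tmed2 over Tmed10 overlaps between the lines.

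The choice of probe and the background correction bear on the size of these changes. Of the 42 genes, 18 had 1 probe and 24 had several. Of the 84 probes 52 were called higher (61.9%, against 12.5% of all probes), 3 lower (against 13.4%) and 29 were not called. Of the 42 probes that were not the brightest of their gene, 14 were not called although the brightest was. Of these, 9 were above background on no array. The other 5 belonged to Arfgap1, Arfgap2, Lman2 and Sec31a, and those of Arfgap1 and Arfgap2 had an adjusted p under 0.05 (limma) with changes under 1.5-fold. With the mean of all probes in place of the brightest, 27 genes were called higher, against 14.2% of all genes. Sec31a and Mcfd2 lost the call (log2 change of 0.37 for each). The changes of Copz2, Lman2, Sec24d, Kdelr2, Gbf1 and Tmed10 were then also smaller by over 1.5 times, at 3.15, 0.89, 0.95, 0.92, 0.67 and 1.20 on the log2 scale. With normexp background correction the log2 changes of Tmed3, Copz2 and Arfgap3 were larger, at 4.80, 4.75 and 3.31. The fitted changes of Sec16b and Arf4 also moved by over 1.5 times, but both genes were undetected in D3 cells and keep only their bounds. The annotation ties some probes of a gene to different transcript records. This is so for the brightest probe of Mcfd2 and its 2 undetected probes, for the second probes of Copg2, Copz1, Lman2 and Sec24c, and for the probes of Tmed5. No transcript record is given for the second probe of Sec22b. An average over probes can thus mix transcripts. Cross-hybridization between related genes was not tested.

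**Figure D5:**
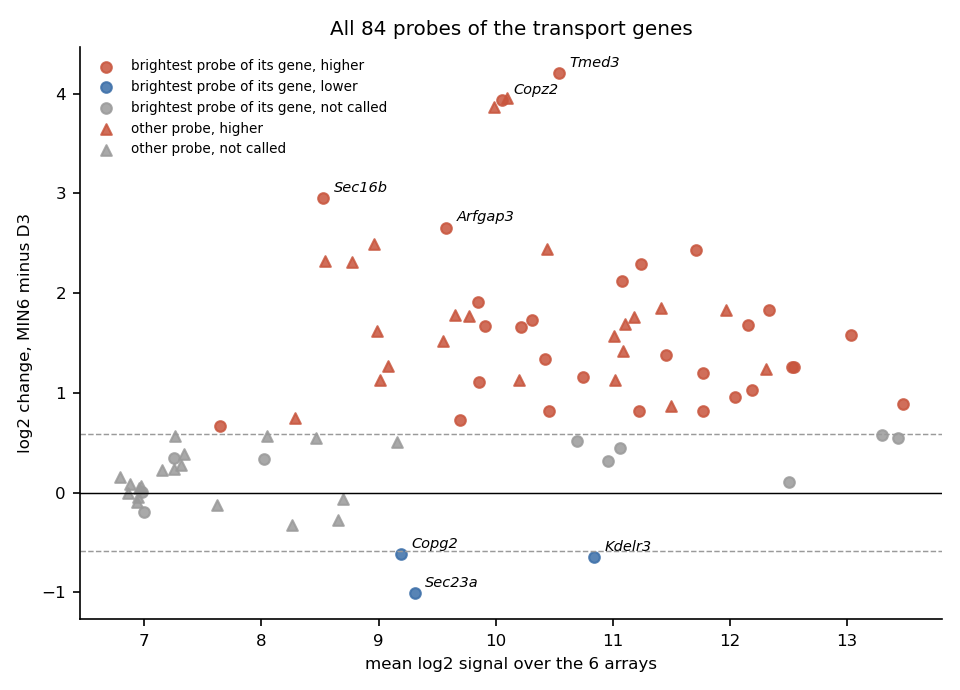
Log2 change from D3 to MIN6 cells (vertical axis) against the mean log2 signal over the 6 arrays (horizontal axis) for all 84 probes, with circles for the brightest probe of each gene and triangles for the others. Dashed lines mark a 1.5-fold change. Probes with a mean signal near 7 lie around 0, and the 3 probes called lower (blue) belong to Sec23a, Copg2 and Kdelr3.

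A wider list of 55 genes, of which 51 were measured, leaned the same way. It held other genes of these transport steps along with the transcription factors Creb3, Creb3l1 and Creb3l2 and with Arf6. Here 27 genes (52.9%) were higher in MIN6 cells, 5 (9.80%) lower and 19 were not called, with a median difference of 1.55-fold. Of all genes 17.1% were higher and 17.5% lower. Of the 43 wider-list genes above background on all 6 arrays, 26 were higher (60.5%) and 5 lower (11.6%), against 27.3% and 28.9% of 7223 genes. Creb3 and Creb3l2, membrane-bound transcription factors known to activate secretory pathway genes, were 4.65-fold and 4.05-fold higher. Creb3l1, a relative, was at background. Mia3 (TANGO1), which helps to load bulky cargo such as collagen at ER exit sites, was 4.19-fold higher, and Surf4, a cargo receptor, 3.76-fold. Of the SNAREs, Gosr2 was 3.03-fold, Stx5a 2.62-fold, Gosr1 2.57-fold, Stx18 2.32-fold, Bet1 2.26-fold and Bet1l 1.51-fold higher. Ykt6 (0.27 on the log2 scale), Bnip1 (-0.22) and Use1 (-0.04) did not pass the test. Lower in MIN6 cells were Gorasp1 (GRASP65), the relative of Gorasp2, by 2.04-fold, Klhl12, an adaptor of the ligase that ubiquitinates Sec31, by 1.79-fold, Cnih4 by 1.73-fold, Arf6, an Arf of the plasma membrane, by 1.63-fold and Bcap29 by 1.62-fold.

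The promoters of 40 of the 45 genes are in the RefSeq table (build GRCm38.p6), as windows from 250 bases before to 50 bases after a start site. They were searched on both strands for the cyclic AMP response element and for elements known from the unfolded protein response. In that response the factors XBP1 and ATF6 bind such elements. The core TGACGTGG was present for 8 of the 40 genes (20.0%), against 0.714% of the 27025 genes in the table. Among the genes that carry it are Sec16b, Sec24d, Copb2 and Gbf1, which were called higher, Sec23a and Kdelr3, which were called lower, and Copb1, which was not called. It was thus found for 4 of 25 matched genes called higher and for 3 of 13 others that were measured, and the remaining carrier, Arf1, was not measured. The stretches are shown because the same core stands near the start site of genes that moved in opposite directions. They are printed 5′ to 3′ on the strand of the gene, with the core, or its reverse complement CCACGTCA, in capitals.
Sec16b (chr1:157506741-157506770, plus strand, core from base -44): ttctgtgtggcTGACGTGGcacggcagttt
Sec24d (chr3:123267459-123267488, plus strand, core from base -26): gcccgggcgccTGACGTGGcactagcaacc
Copb2 (chr9:98563713-98563742, plus strand, core from base -7): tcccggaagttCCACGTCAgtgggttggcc
Gbf1 (chr19:46152535-46152564, plus strand, core from base -12): gaggctagttaCCACGTCAgtgagctgaca
Sec23a (chr12:59011993-59012022, minus strand, core from base 7): ctcctccccttTGACGTGGcagaggcggca
Kdelr3 (chr15:79516367-79516396, plus strand, core from base -30): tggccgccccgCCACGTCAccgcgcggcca
Copb1 (chr7:114254690-114254719, minus strand, core from base -28): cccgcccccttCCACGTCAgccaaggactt

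In all 7 of these genes the core lies within 50 bases of the start site of the window, which need not be the start of the transcript that the probe reads. Positions count from the start site, with base 1 as the first transcribed base and -1 before it. The shorter element CCACG, which the core contains on its other strand, was found for 31 of the 40 genes (77.5%). The share of all 27025 genes with a window, expressed here or not, was 35.5%. It was found for 19 of 25 matched genes called higher and for 11 of 13 others that were measured. The cyclic AMP response element TGACGTCA was found for Cope alone (against 2.03% of all genes), and GACACGT for Cope, Sec16a and Mcfd2 (7.5%, against 1.6%). Each of these was called higher, as were 25 of the 38 measured genes with a window. The ER stress response element, CCAAT and CCACG separated by 9 bases, was found for none of the 40 genes and for 0.137% of all genes. A match is a description of the letters in the window, and no binding was measured.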

How the data were processed

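RNA from 3 D3 and 3 MIN6 samples was measured on 1 array each. The deposited signal intensities are linear and, per the file headers, not normalized. The deposited detection score is headed as a p-value but was read as 1 minus p and converted, since on every array it was 1 for each of the 1000 brightest probes and at most 0.0513 for the 1000 dimmest. The authors' processed values are on a log2-like scale, quantile-normalized with lumi per the methods (r = 0.994 across probes with the values computed here), and served as an alternative. How they were transformed was not given in the sources used here.

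Intensities were quantile-normalized, taken to log2 without background correction or filter, and fitted in R 4.3.3 with limma 3.58.1 (lmFit, eBayes), with the cell line as the only term. The Benjamini-Hochberg adjustment ran over 45281 probes. Annotation gave 1 symbol for 34885 probes, several for 18 and none for 10378. A gene undetected in one line has only a lower bound for its fold, computed from the means of the lowest signals that passed detection on those arrays. Normalization and the limma calls were tested on simulated data with far fewer changed probes than were called here. The bounds, the ratios of related genes and the motif search were not tested in this way. Figures used Python 3.11.15 and matplotlib 3.10.9.

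The members, lists and tests were chosen with earlier results of these data known. Array values are given in full for up to 3 genes of each role with the largest called changes, for the genes called lower, and, chosen after the values were seen, for Copz1. The series record calls the samples independent. If they were not separate cultures, the p-values reflect only variation between samples, which may be technical. Precision is limited by having 3 arrays per line. Alternatives were normexp correction (neqc, offset 16), median scaling, cyclic loess, the authors' values, 3 detection filters (that for all 6 arrays added later), the replicate number as a block, other probe choices, a robust prior with a trend, the methods' t-test, other fold thresholds and leaving out each array. A slide block was not run.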

Additional observations from a re-analysis of the deposited data

How the results depend on the processing

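The count of genes called higher (29 of 42) stayed within 1.5 times under every alternative run, from 22 with at least 2-fold to 36 with no fold threshold, and was 29 to 30 when each array was left out. The genes called lower numbered 1 in place of 3 with median scaling, with cyclic loess and with at least 2-fold, and 3 without any one array. The median log2 change was 1.25 with normexp correction, 1.21 with cyclic loess, 1.18 and 1.16 with the stricter and looser detection filters, 1.16 over genes above background on all 6 arrays, 0.89 with the mean of all probes and 1.18 with the probe of smallest p, against 1.07, and 1.04 to 1.10 without single arrays. In the wider list 16 genes were higher with at least 2-fold against 27, while the share of all genes was 11.3% against 17.1%. In that list 3 genes with cyclic loess and 1 with at least 2-fold were lower against 5. The shares of all genes were 15.8% and 10.9% against 17.5%. The fold of a called gene moved by over 1.5 times for 5 genes with normexp correction (each larger), 7 with averaged probes (each smaller), 1 with the authors' values (Sec16b, smaller) and 2 with the probe of smallest p (Sec22b, 1.69 on the log2 scale, and Preb, at least 4.45-fold). For Sec16b and Arf4, undetected in D3 cells, the fitted changes are no bounds. Each of the 32 called genes kept its direction under every alternative that measured it.

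No shared effect of the replicate number was seen. The deviations of same-numbered arrays correlated at 0.03, 0.00 and -0.06 across probes above background on all 6 arrays. These values cannot settle whether the samples were paired. With the replicate block the counts were the same, 29 higher and 3 lower, against 17.1% and 17.5% of all genes, and the median log2 change 1.07.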
